A study of Homo sapiens with 6 samples.

Results

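The BH3-only genes are the initiators of the mitochondrial pathway of apoptosis. The 8 genes described here, BBC3, PMAIP1, BCL2L11, BID, BAD, BIK, BMF and HRK, were taken as a fixed list and matched by symbol and Ensembl identifier, which found 8 of 8 members among the 57905 genes of the count table. All 8 had enough counts to be tested, with 16622 genes tested in all. The libraries came from NALM6, a human cell line of B cell precursor acute lymphoblastic leukemia. Cells received either the solvent DMSO (3 libraries) or 500 nM of THZ1, a covalent inhibitor of the kinase CDK7 (3 libraries), and were collected after 24 h. A single cell line at 1 dose and 1 time point was sequenced. Nothing in the labels says that replicates came from separate cultures, so the p-values measure the spread between these libraries, which may be technical.

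A BH3-only protein carries a short helix, the BH3 domain, that fits into a groove of the survival proteins BCL2, BCL-XL and MCL1. Occupying that groove frees the effectors BAX and BAK to open the outer mitochondrial membrane, after which cytochrome c leaves and caspases are switched on. Cells control each initiator differently: BBC3 and PMAIP1 mainly by transcription, BCL2L11 and BMF also by tethering to dynein light chains, BAD by phosphorylation and BID by cleavage. The level of an mRNA therefore reports only a part of that control, and no protein was measured in the libraries.

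The stretch of coding sequence for the BH3 domain of each member is shown first, because the family is named after that domain. In the reference transcripts of GENCODE 44 on GRCh37, each of the 8 coding sequences held exactly 1 match to a pattern that encodes leucine, any 3 residues, then glycine, alanine or serine, then aspartate, any residue, and phenylalanine, methionine or leucine. The last position, added to the pattern first planned, allows only residues that the members carry there. The matches in all 8 members are therefore a description and not a test. The same pattern was found in 8.12% of 19247 reference coding transcripts, so a match alone does not define the family. The capitals mark the codons of the conserved leucine and aspartate, and every stretch lies within 1 coding exon.
BBC3, chr19:47729842-47729865, minus strand: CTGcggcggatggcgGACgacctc
PMAIP1, chr18:57569905-57569928, plus strand: CTCaggagatttggaGACaaactg
BCL2L11, chr2:111907680-111907703, plus strand: TTGcggcgtattggaGACgagttt
BID, chr22:18222187-18222210, minus strand: CTCgcccaggtcgggGACagcatg
BAD, chr11:64039100-64039123, minus strand: CTCcggaggatgagtGACgagttt
BIK, chr22:43523722-43523745, plus strand: CTGgcctgcatcgggGACgagatg
BMF, chr15:40396402-40396425, minus strand: CTTcagtgcattgcaGACcagttc
HRK, chr12:117318981-117319004, minus strand: CTCaaggcgctaggcGACgagctg
The aspartate codon was GAC in all 8 members, while the leucine codon and the intervening bases differed. The coding sequences ranged from 54 codons in PMAIP1 to 198 codons in BCL2L11.

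The libraries held 7876402 to 11164840 counts, and every DMSO library was deeper than every THZ1 library. Counts were scaled by TMM and are given as CPM, the count relative to the scaled library size, and a gene was called when its adjusted p-value was below 0.05 in edgeR's quasi-likelihood test. The limit set by 3 counts was at most 0.415 CPM, which covers counting error only and lay below every value of every member. Markers of B cell precursors were present, with a summed level of 4019.7 to 4156 CPM with DMSO and 2172 to 2240.3 CPM with THZ1 over 12 genes. Markers of T cells summed to at most 0.969 CPM in any library, with CD8A at 0 throughout. Myeloid markers summed to 3.88 to 4.59 CPM with DMSO and 17.3 to 18.4 CPM with THZ1, the 4 erythroid markers to at most 3.81 CPM, and COL1A1 and COL3A1 together to at most 16.1 CPM. The part of these shifts in the results was not tested.

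Of the 8 BH3-only genes, 5 rose with THZ1 (BBC3, BMF, PMAIP1, HRK and BAD), 2 fell (BID and BIK) and 1, BCL2L11, was not called. Among all genes tested, 43.5% were called higher and 41.1% lower, and 84.5% were called in either direction, so that 7 calls among 8 members is close to the background. The libraries of the 2 treatments did not overlap for 7 of the 8 members, against 84.7% of all genes tested. The spread among the members was wide, from a log2 fold change of 5.11 for BBC3 to −1.64 for BID. Past a size of 1.5 or more on the log2 scale, 3 members were higher and 1 was lower, where the background was 24.6% and 12.9%. The median log2 fold change of the members was 1.01, beside 0.028 for all genes tested. Counts are relative to each library's total, so a change in total RNA per cell is not visible in them. A member called higher or lower moved relative to the other genes, and its RNA per cell was not measured. Changes within cells and changes in the share of cells that express a gene cannot be told apart in such bulk samples.

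**Figure D1:**
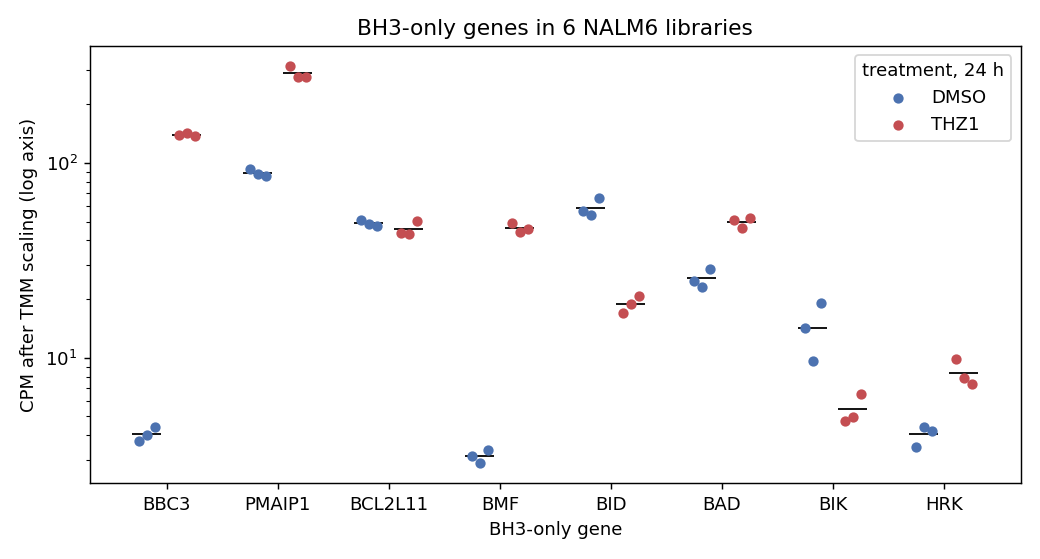
Level of each BH3-only gene in each library, as CPM after TMM scaling on a log axis, with DMSO in blue, THZ1 in red, points for libraries and a bar for the mean of 3. BBC3 moved from 4.04 to 139.6 CPM and BMF from 3.13 to 46.3 CPM, whereas the points of BCL2L11 overlap between treatments.

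BBC3, which encodes PUMA, an initiator that binds all survival proteins, showed the steepest rise. BBC3 (chromosome 19, 47724079 to 47736023, minus strand) had 45, 49 and 52 counts in the DMSO libraries and 1060, 1031 and 1023 counts in the THZ1 libraries. These correspond to 3.72, 4.02 and 4.39 CPM with DMSO and 139.4, 142.7 and 136.8 CPM with THZ1. The lowest THZ1 library thus lay far above the highest DMSO library, and the THZ1 libraries differed little among themselves. The log2 fold change of BBC3 was 5.11 (standard error 0.11, 95% interval 4.89 to 5.33), or 34.5-fold, with an adjusted p-value of 1.2e-27 by edgeR. Of all genes tested, 6.05% had a higher log2 fold change than BBC3. The microRNA gene MIR3191 lies on the opposite strand of BBC3 and shares 80 exonic bases with it, 2.51% of the merged exons of BBC3. MIR3191 had 1, 0 and 0 counts with DMSO and 130, 101 and 119 counts with THZ1, so it moved in the same direction, and without a stated strand setting the reads of such a pair cannot be told apart.

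PMAIP1, which encodes NOXA, an initiator that binds MCL1 most tightly, was the most abundant member and also rose. PMAIP1 (chromosome 18, 57567228 to 57571537, plus strand) stood at 93.0, 87.8 and 85.7 CPM with DMSO and at 315, 275 and 277 CPM with THZ1. All THZ1 libraries were higher than all DMSO libraries, with THZ1 replicate 1 the highest. Its log2 fold change was 1.70 (standard error 0.07, 95% interval 1.55 to 1.85), or 3.25-fold, with an adjusted p-value of 1.0e-19 by edgeR. No annotated gene overlaps PMAIP1, so its counts are free of the strand question.

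BCL2L11 and BMF encode BIM and BMF, the pair of initiators that bind dynein light chains. BMF rose, whereas BCL2L11 was not called. BCL2L11 (chromosome 2, 111876955 to 111926021, plus strand) had 50.7, 48.8 and 47.5 CPM with DMSO and 43.8, 43.3 and 50.1 CPM with THZ1. THZ1 replicate 3 lay within the DMSO range and the other THZ1 libraries just below it. The log2 fold change of BCL2L11 was −0.10, with a 95% interval of −0.28 to 0.08 and an adjusted p-value of 0.305 by edgeR. That interval excludes a change of 1 on the log2 scale in either direction under TMM scaling, whereas the sign depended on the scaling: the log2 fold change was 0.094 with upper quartile factors and −0.35 with library sizes alone. In the last setting BCL2L11 was called lower (adjusted p = 0.000993 by edgeR). The long non-coding gene MIR4435-2HG overlaps BCL2L11 on the opposite strand and held at most 1 count in any library.

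BMF (chromosome 15, 40380091 to 40401093, minus strand) had 3.14, 2.87 and 3.38 CPM with DMSO and 49.2, 44.02 and 45.6 CPM with THZ1. The groups were well separated, although the DMSO level rested on 35 to 40 counts per library. BMF had a log2 fold change of 3.88 (standard error 0.14, 95% interval 3.60 to 4.17), or 14.7-fold, with an adjusted p-value of 8.1e-22 by edgeR. BMF-AS1, a long non-coding gene on the opposite strand that shares 8.46% of the exonic bases of BMF, also rose, from 3, 10 and 5 counts to 56, 70 and 69 counts. DYNLL1 and DYNLL2, the dynein light chains that hold BIM and BMF, were higher with THZ1 by 0.40 and 0.77 on the log2 scale. Their adjusted p-values were 1.9e-05 and 8.1e-12 by edgeR, although for DYNLL1 the log2 fold change was 0.17 in the deposited log2 table and 4 of the 16 alternatives did not call it.

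BID, which becomes active when caspase 8 cleaves it and so ties death receptors to mitochondria, was the member that fell most. BID (chromosome 22, 18216904 to 18257536, minus strand) stood at 56.7, 54.2 and 66.1 CPM with DMSO and at 17.0, 19.0 and 20.7 CPM with THZ1. Every THZ1 library was below every DMSO library, and the highest DMSO library was replicate 3. The log2 fold change of BID was −1.64 (standard error 0.11, 95% interval −1.86 to −1.42), with an adjusted p-value of 4.0e-15 by edgeR. CASP8, the gene of the protease itself, stood at 41.8 ± 1.25 CPM in DMSO libraries against 50.5 ± 1.35 CPM in THZ1 libraries (SD, n = 3 each). Its difference on the log2 scale was 0.27 (adjusted p = 0.00547 by edgeR), which shrank to 0.022 with library sizes alone. MIR3198-1 lies within an intron of BID and shares no exonic base with it.

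BAD binds BCL2 and BCL-XL once it is dephosphorylated, and its transcript rose moderately. BAD (chromosome 11, 64037302 to 64052176, minus strand) had 24.9, 23.1 and 28.7 CPM with DMSO and 51.2, 46.4 and 52.3 CPM with THZ1. The groups did not overlap, and the log2 fold change was 0.97 (standard error 0.10, 95% interval 0.76 to 1.17) with an adjusted p-value of 2.5e-10 by edgeR. GPR137, a protein-coding gene on the opposite strand, shares 23.7% of the merged exonic bases of BAD, the largest share of any member, although BCL2L11 and BMF share more bases with their neighbours (727 and 461 against 404). GPR137 rose too, from 48.0 to 88.8 mean CPM (log2 fold change 0.89, adjusted p = 6.1e-11 by edgeR). The sources used here do not say how reads from shared bases were counted, and their part in either value was not tested.

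BIK, an initiator that resides at the endoplasmic reticulum, fell but was the most variable member among the DMSO libraries. BIK (chromosome 22, 43506756 to 43525718, plus strand) had 14.2, 9.59 and 19.0 CPM with DMSO and 4.73, 4.98 and 6.55 CPM with THZ1. The lowest DMSO library, replicate 2, was still above the highest THZ1 library. The log2 fold change was −1.39 (standard error 0.21, 95% interval −1.82 to −0.96), with an adjusted p-value of 4.7e-07 by edgeR, and leaving out single libraries moved it between −1.63 and −1.15.

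HRK, an initiator best known from neurons, gave values on opposite sides of 0 in the 2 deposited tables. HRK (chromosome 12, 117293949 to 117319246, minus strand) had 42, 54 and 50 counts with DMSO and 75, 57 and 55 counts with THZ1, which TMM scaling for the shallower THZ1 libraries turned into 3.47, 4.43 and 4.22 CPM against 9.86, 7.89 and 7.35 CPM. From these counts HRK was called higher (log2 fold change 1.05, standard error 0.20, 95% interval 0.63 to 1.47, adjusted p = 2.3e-05 by edgeR). In the deposited per-length table, HRK had 2.20, 2.54 and 2.62 FPKM with DMSO and 2.53, 1.89 and 1.84 FPKM with THZ1, values that overlap. There the log2 fold change of HRK was −0.17 and it was not called (adjusted p = 0.215 by limma). The call of HRK therefore holds for the counts but not for the deposited log2 values, and the cause was not tested. No annotated gene overlaps HRK.

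**Figure D2:**
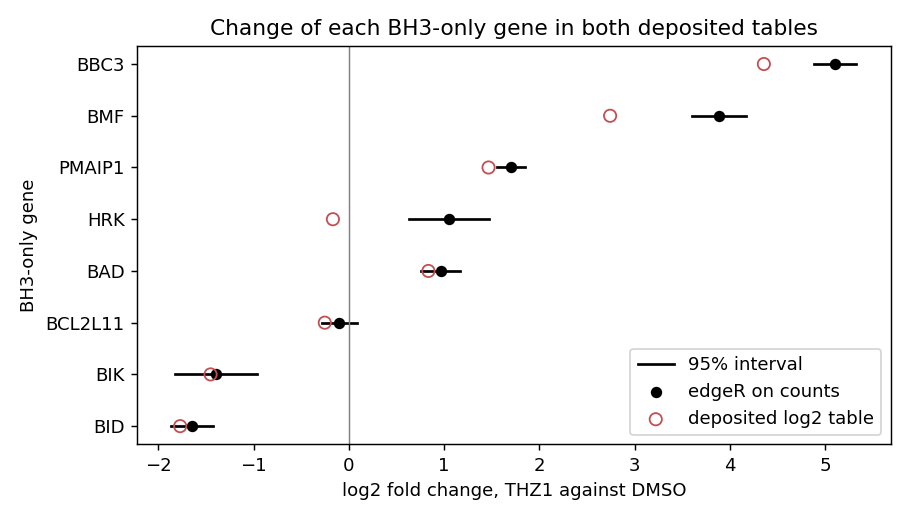
Log2 fold change of each BH3-only gene, THZ1 against DMSO, with edgeR estimates from the counts as filled points with 95% intervals and the values from the deposited log2 table as open circles. BBC3 is highest at 5.11 and BID lowest at −1.64, and HRK lies at 1.05 in the counts but at −0.17 in the deposited table.

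The order of the changes could be resolved for most neighbours. BBC3 exceeded BMF by 1.22 on the log2 scale (95% interval 0.88 to 1.57), BMF exceeded PMAIP1 by 2.18 (1.87 to 2.49) and PMAIP1 exceeded HRK by 0.65 (0.23 to 1.08), with the estimates of a pair treated as independent. HRK and BAD differed by 0.083 (−0.36 to 0.53) and BIK and BID by 0.25 (−0.21 to 0.72), so neither pair was separated. BCL2L11 lay between these pairs, 1.07 below BAD and 1.29 above BIK. In the deposited log2 table, where the fold change is on the log2(FPKM + 1) scale, BBC3 rose by 4.36 and BMF by 2.74, and the median of the members was 0.33. With a pseudocount of 0.1 the values of BBC3 and BMF were 4.60 and 3.13, still below those from the counts. HRK changed its place in that table, at −0.17 against 0.84 for BAD and −0.25 for BCL2L11.

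Levels of different genes were compared only per length, on the FPKM scale of the deposited table. With DMSO, PMAIP1 led with 113 ± 7.98 FPKM (SD, n = 3), followed by BAD with 41.4 ± 4.03, BIK with 41.4 ± 13.3 and BID with 36.8 ± 3.53, and the ranges of BAD, BIK and BID overlapped from neighbour to neighbour. BCL2L11 had 20.8 ± 0.644 FPKM, and BBC3 with 4.50 ± 0.394, HRK with 2.45 ± 0.220 and BMF with 2.40 ± 0.244 FPKM were the scarcest, the last pair overlapping. With THZ1, PMAIP1 stayed first with 315 ± 21.0 FPKM, but BBC3 moved from sixth to second place with 112 ± 2.36 FPKM. BAD had 74.6 ± 4.60 FPKM and BMF 21.8 ± 1.37 FPKM, ahead of BCL2L11 with 17.3 ± 1.64 and BIK with 14.2 ± 2.88, which overlapped. BID, with 10.1 ± 1.20 FPKM, and HRK, with 2.09 ± 0.387 FPKM, came last.

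Summed over the 8 genes, the level was 266, 247 and 276 FPKM in the DMSO libraries and 589, 553 and 557 FPKM in the THZ1 libraries. Every THZ1 library was higher, by 1.11 on the log2 scale between the means, or 1.31 when the counts were divided by merged exon length. PMAIP1 made up 43.2 ± 5.01% of the sum with DMSO and 55.5 ± 1.97% with THZ1. The share of BBC3 went from 1.71 ± 0.114% to 19.7 ± 0.918%, whereas that of BID went from 14.0 ± 0.733% to 1.79 ± 0.260% and that of BIK from 15.6 ± 4.20% to 2.51 ± 0.555%. Without PMAIP1 the sums were 150 ± 21.2 and 252 ± 7.03 FPKM. When levels were computed from the counts per kilobase, PMAIP1 held 43.6% and 57.0% and BBC3 1.36% and 18.9%.

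**Figure D3:**
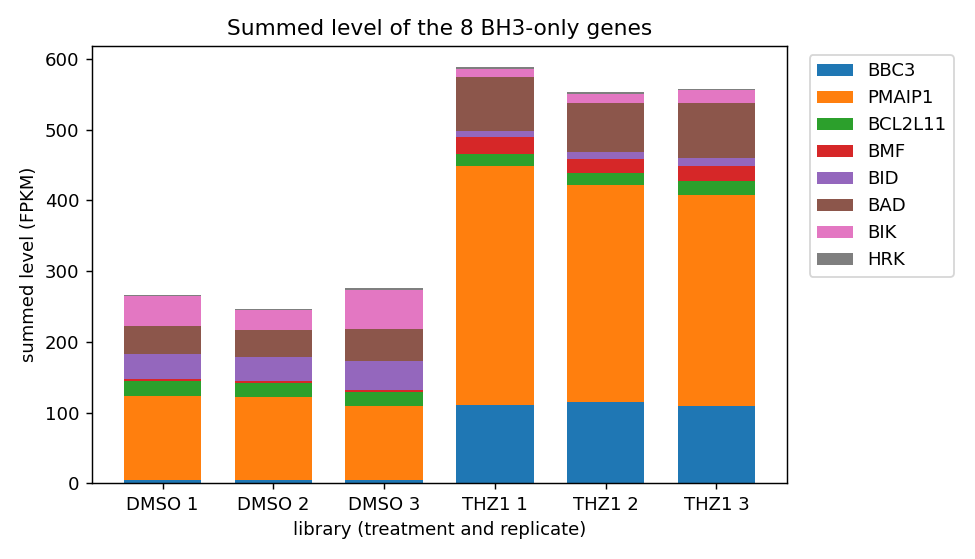
Summed level of the 8 BH3-only genes in each library, in FPKM of the deposited table, with 1 colour per gene. The DMSO bars reach 247 to 276 FPKM and the THZ1 bars 553 to 589 FPKM, and the segments of PMAIP1 and BBC3 account for most of the taller bars.

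The transcripts of survival and effector proteins, which the initiators bind or free, were examined next. Of 9 survival and effector genes, 6 were tested, of which 4 were higher and 2 lower, with a median log2 fold change of 0.34, and 6 calls among 6 genes stand beside the 84.5% called among all genes tested. MCL1, the main partner of NOXA, went from 206.5 ± 7.07 to 644 ± 1.22 CPM, while BCL2 went from 63.5 ± 4.73 to 20.9 ± 1.33 CPM. BCL2L1, which encodes BCL-XL, rose by 0.47 on the log2 scale. The effector BAX rose by 1.33 on the log2 scale (adjusted p = 7.5e-17 by edgeR). BAK1 rose by 0.22 (adjusted p = 0.0358 by edgeR), a call that 10 of the 16 alternatives did not make and whose sign turned with library sizes alone (−0.026). BCL2L2 fell by 0.34 (adjusted p = 0.0138), but was not called without DMSO replicate 2 or without THZ1 replicate 2, which leaves 1 survival gene lower. On the FPKM scale, BCL2, BCL2L1, BCL2L2 and MCL1 summed to 216 ± 13.7 with DMSO and 436 ± 4.25 with THZ1. The ratio of the BH3-only sum to this survival sum was 1.21, 1.09 and 1.37 with DMSO and 1.34, 1.28 and 1.27 with THZ1, so the ratios overlapped. The ratio of PMAIP1 to MCL1 was 0.833 ± 0.0272 with DMSO and 0.871 ± 0.0544 with THZ1, and these overlapped too.

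Transcription factors that act on BH3-only genes, and genes that regulate such factors, were examined as a list of 20, of which 18 were tested. Of these, 10 were higher, 6 lower and 2 not called, with a median log2 fold change of 0.61. The background among all genes tested was 43.5% higher and 41.1% lower. In either direction it was 84.5%, so the number of calls in the list is close to it. Among the genes called lower were MDM2 (−0.40) and MDM4 (−0.96), which are not transcription factors. E2F1, an activator of BH3-only genes, fell by 2.83 on the log2 scale (adjusted p = 7.9e-23 by edgeR), and MYC was the lowest of the list at −2.89. At the other end, EGR1 was the highest, going from 1.52 ± 0.614 to 107 ± 5.62 CPM. EGR1 had 1.65, 2.05 and 0.844 CPM with DMSO, and passed the filter only through the THZ1 libraries. The stress factors ATF4 and DDIT3 rose by 1.20 and 0.75 on the log2 scale (adjusted p = 8.8e-16 and 3.3e-07 by edgeR). FOXO3, an activator of BCL2L11, went from 18.2 ± 2.80 to 15.01 ± 2.49 CPM and was not called (adjusted p = 0.0687), though 7 of the 16 alternatives called it lower. The other FOXO genes of the list, FOXO1 and FOXO4, rose by 1.01 and 2.45 on the log2 scale. Their adjusted p-values were 3.2e-13 and 9.1e-19 by edgeR, and all 16 alternatives called both higher.

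Binding sites of such factors were looked for in RefSeq promoter windows (GRCh38.p14, 250 bases before and 50 after a start), which matched 7 of the 8 members in 13 windows and held none for BIK. Motifs were searched on both strands, and 3 of the 4 searched are given here, each with a match in a member: GTAAACA for forkhead factors, CACGTG for the E-box and TGATGNAAN for ATF4 with DDIT3. They occurred in 3.42%, 7.26% and 3.61% of all 35116 windows. The matches are shown with capitals on the motif. Each is read along the strand of its gene, plus for BCL2L11 and minus for BBC3, BID and HRK. Whether the regulators above act on these genes in NALM6 cells was not tested.
BCL2L11, forkhead, chr2:111120681-111120707: agttactccgGTAAACAcgccagggac
BBC3, E-box, chr19:47232884-47232909: ggggagatttCACGTGagatatagat
BID, E-box, chr22:17774074-17774099: gtgtcctctcCACGTGgcctggggat
HRK, ATF4 with DDIT3, chr12:116881498-116881526: gggggccggaTGATGTAACccccctcccc
The site of BID was contained in 2 overlapping windows and counted in both. A match is a description of sequence, and binding was not measured.

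The background for the lists that follow was 43.5% called higher and 41.1% lower, or 84.5% in either direction, among all genes tested. Among 26 genes whose products bind, tether or modify BH3-only proteins, 24 were tested, and 9 were higher and 13 lower, with a median of −0.28. SFN, an adaptor that retains phosphorylated BAD, was the highest, going from 0.222 ± 0.252 to 17.4 ± 1.46 CPM. SFN had 0.496, 0 and 0.169 CPM with DMSO, near the limit set by 3 counts, and passed the filter only through the THZ1 libraries. MAPK9, a kinase that phosphorylates BIM and BMF, was the lowest, from 45.6 ± 0.773 to 9.69 ± 1.44 CPM. The number of these genes called higher was 5 with library sizes alone. Of 20 apoptosome and caspase genes, 18 were tested, with 8 higher and 8 lower and a median of −0.068 that became 0.12 with upper quartile factors. DIABLO, which relieves the block on caspases, was the highest at 3.62 (2.82 ± 0.517 to 34.9 ± 2.46 CPM), but stood at 2.22 in the deposited log2 table. From the counts, DFFA, the inhibitor of the apoptotic nuclease, was the lowest at −1.72, with DFFB, the nuclease itself, at −1.71. In the deposited log2 table DFFB was the lower of the pair, at −2.04 against −1.87. APAF1 rose by 0.44 while CASP9 fell by 1.07 (adjusted p = 4.0e-05 and 5.7e-07 by edgeR). Of 10 other genes with a BH3 or BH3-like motif, 9 were tested and 2 were higher and 5 lower, with a median of −0.71. From the counts, SPNS1 was the highest at 2.55 and the mitophagy receptor BNIP3L the lowest at −1.74. In the deposited log2 table SPNS1 stood at 1.38, below MOAP1 at 1.98.

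**Figure D4:**
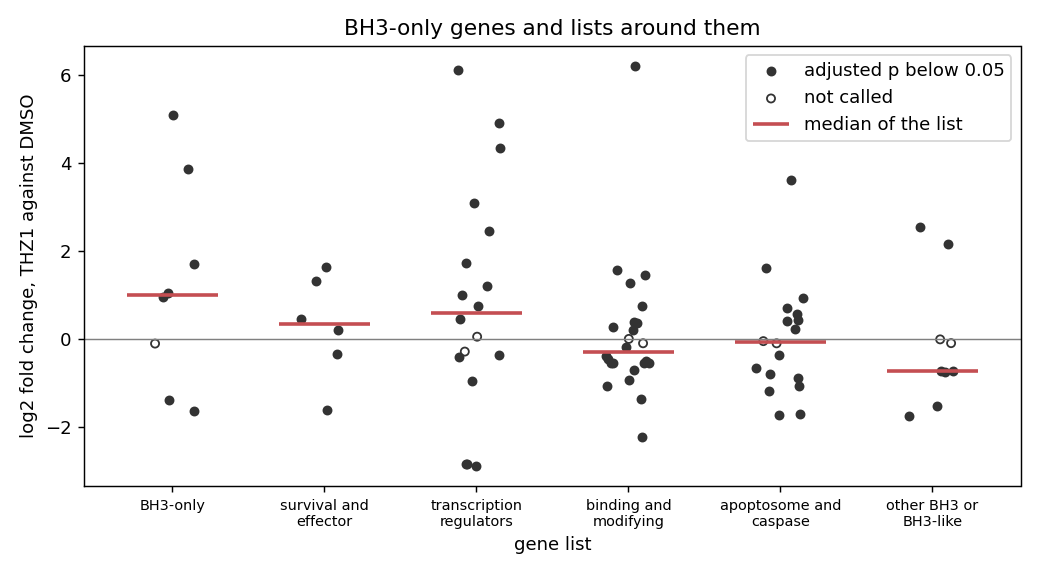
Log2 fold change of each gene tested in the BH3-only list and 5 lists around it, with filled points for an adjusted p-value below 0.05, open points for genes not called and a red bar at the median. The medians lie at 1.01 for the BH3-only genes, 0.34 for survival and effector genes and −0.71 for the other BH3 genes, and each list holds genes on both sides of 0.

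Genes with the pattern most like the extremes of the family were sought by the distance of gene-centred log2 CPM (prior count 2) over the 6 libraries, among genes with a symbol and a mean of at least 1 CPM. Nearest to BBC3 were GP6 at a distance of 0.201, GARIN4 at 0.220 and the immediate early gene IER2 at 0.233. IER2 was far more abundant than BBC3, at 85.9 ± 7.83 CPM in DMSO and 3002 ± 45.8 CPM in THZ1 libraries, and had a log2 fold change of 5.13. GP6 had 0.609 ± 0.0982 and 26.7 ± 1.61 CPM, while GARIN4 was at 0 with DMSO and at 6.10 ± 0.381 CPM with THZ1, at least 4.61 higher on the log2 scale when measured against 3 counts per DMSO library. Both genes reached the mean of 1 CPM only through the THZ1 libraries, and the distance of GARIN4 depends on the prior count. Nearest to BID were RCC2-AS1 at 0.0711, the translation initiation factor EIF5B at 0.136 and the ubiquitin-conjugating enzyme UBE2E3 at 0.137, with log2 fold changes of −1.67, −1.73 and −1.65. These distances are dominated by the shared treatment difference and describe 6 libraries only.

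**Figure D5:**
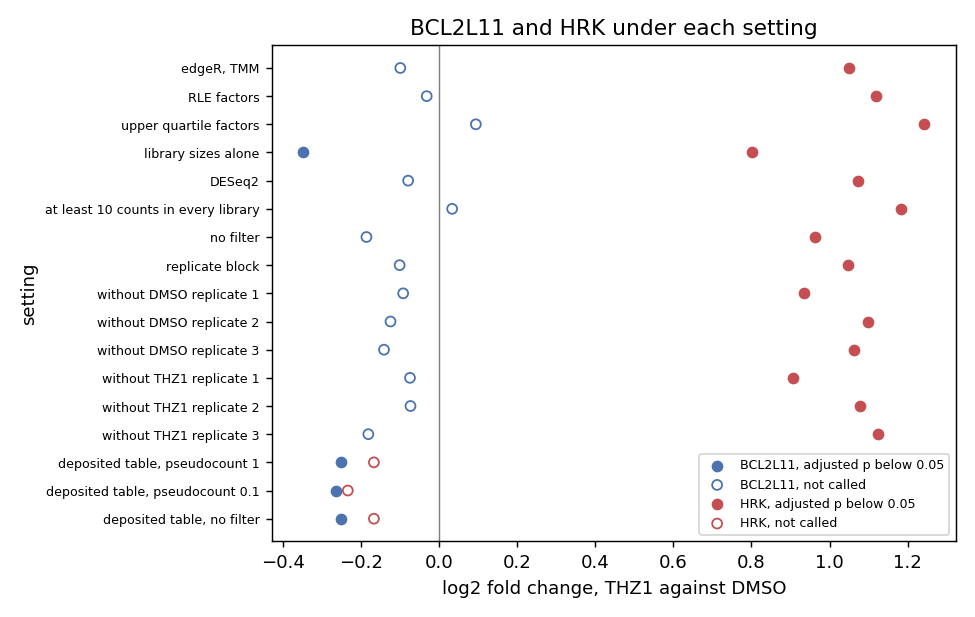
Log2 fold change of BCL2L11 (blue) and HRK (red) under each way of processing the data, with filled points for an adjusted p-value below 0.05 and open points otherwise. HRK stays between 0.80 and 1.24 in every setting that uses the counts and is below 0 in the deposited table, while BCL2L11 stays between −0.35 and 0.094 and is on both sides of 0.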

How the data were processed

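RNA-SEQ libraries of NALM6 cells, 3 per treatment, were analysed. The authors deposited raw counts per gene; reads had been filtered, aligned to GRCh37 with STAR and counted with htseq-count, and the submitters' notes also name cutadapt and RSEM. The annotation and the strand setting are not given in the sources used here. A second deposited table was read as log2(FPKM + 1), since its log2 values are never negative, and was taken back to FPKM. Libraries of a treatment have nearly equal sorted values there, through a step that the sources used here do not name. The same deposited table gives p-values, FDR values and log2 fold changes from the authors' own comparison of the treatments, which were not used.

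Counts were filtered with filterByExpr (minimum count 10, minimum total 15), scaled by TMM and tested with edgeR 4.0.16 (quasi-likelihood, two-sided, Benjamini-Hochberg over 16622 genes). Each standard error is the size of the change divided by the square root of F. Alternatives used DESeq2 1.42.0 and limma 3.58.1 in R 4.3.3. GENCODE 44 on GRCh37 gave positions, exon lengths and coding sequences, and RefSeq the promoter windows. Replicates differed by more than sampling noise (chi-square per gene 1.81 to 9.35) and were kept apart. The pipeline was tested on simulated counts. A protein table was not used here, so the BH3 pattern was searched in coding sequence, a choice made after the data were seen. The pattern first planned ended at the aspartate, so the matches given are those of a longer pattern.

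The members and gene lists were chosen with earlier results of these data known. All members are named, with the highest and lowest gene of each list, genes that a member's description turns on, and the 3 nearest patterns of the highest and lowest member. BCL2L2, an exception in its list, MOAP1, MDM2, MDM4, FOXO1, FOXO4, DFFB and the genes overlapping members were chosen after their values were seen. Some results are not reported here.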

Additional observations from a re-analysis of the deposited data

How the results depend on the processing

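BBC3, PMAIP1, BID, BAD, BIK and BMF kept their direction and their call under all 16 alternatives (3 other scalings, 2 other filters, DESeq2, the replicate block, 6 fits that each lack 1 library, and 3 limma fits of the deposited table). The number of members called stayed at 5 higher and 2 lower with each library left out, and was 3 higher and 1 lower past a size of 1.5 on the log2 scale. BCL2L11 was 0.094 under upper quartile scaling and 0.034 under a filter of 10 counts per library. It was called lower with unscaled library sizes (−0.35) and from the deposited table (−0.25 with a pseudocount of 1, −0.26 with 0.1). HRK was −0.17 in the deposited table with a pseudocount of 1 and −0.23 with 0.1; the cause was not tested. The median of all genes moved by 0.19 under upper quartile scaling and by −0.25 under unscaled library sizes, relative to TMM.

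Survival and effector genes called lower numbered 1 under upper quartile scaling, DESeq2 and the filter of 10 counts per library, and 1 to 2 with each library left out. Partner genes called higher numbered 5 under unscaled library sizes and in all 3 limma fits. The log2 ratio of the summed BH3-only level was 1.31 from counts per kilobase. The replicate numbers did not pair the libraries (correlations of same-numbered deviations from −0.00400 to 0.0206), and a replicate block left 5 members higher and 2 lower, with BCL2L11 at −0.10 (adjusted p = 0.313 by edgeR). At 35 to 54 counts per DMSO library, BBC3, BMF and HRK had the least depth with DMSO. With THZ1, BIK had the least, at 36, 36 and 49 counts.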
